A study of Mus musculus with 18 samples.

Results

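Immunoglobulin heavy chain variable (Ighv) segments were described in bulk RNAseq of dorsal spinal cord from mice whose spinal neurons were given a LacZ, HDAC4 wt or HDAC4 3SA transgene. Members were all loci of the gene tables named for a single Ighv gene, placed at overlapping positions in the 3 tables and carrying a usable estimate in each. The rule found 120 rows of 34579 per table, and these rows named 87 segments. Each of the 87 segments had 1 row on the strand of its gene, and this row gave the levels described here. For 33 segments a second row lay on the opposite strand, and those rows are described by themselves. Of the 87 segments, 82 are annotated as functional variable genes and 5 as pseudogenes, out of 183 Ighv genes in GENCODE M21, and the segments fall into 15 families named by the first number of the symbol.

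All mice were C57BL/6 by their labels (the methods name the C57BL/6N substrain), aged 3 months, and had received a bilateral injection of recombinant adeno-associated virus (rAAV) into the dorsal horn of lumbar segments L3 to L5. rAAV-LacZ (β-galactosidase) served as the control, rAAV-HDAC4 wt carried wild-type histone deacetylase 4, and rAAV-HDAC4 3SA carried a mutant that stays in the nucleus because sites needed for its export were altered. The promoter of these 3 vectors is not given in the sources used here. Mice received complete Freund's adjuvant (CFA), which inflames the hindpaw, or saline into the paw 24 h before collection, which gave 6 groups of 3 mice. The deposited level is 1 FPKM value (sequenced fragments divided by exon length and by the depth of the run) per group over its 3 mice. With no value per mouse, there was no replicate error to set a difference against, no test was made and every comparison is a description of these groups. Each vector was scaled in a run of its own, so vector and run cannot be told apart and levels across vectors are given side by side only. The labelled tissue carried its neuronal markers in every group, with Snap25, a synaptic vesicle fusion protein, between 646 and 1227 FPKM. The 5 neuronal markers, of which Snap25 was the highest, summed to 1579 and 1473 FPKM in the LacZ saline and CFA groups. Their sum was lower, at 870.5 to 1157 FPKM, in the HDAC4 groups. The methods give a minimum number of reads, but the number in each library is not in these tables.

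A heavy chain is encoded by a variable, a diversity and a joining segment that a developing B cell joins on chromosome 12, after which the rearranged gene is spliced to a constant region such as Ighm or Igha. Each B cell clone uses a single productive variable segment, and its daughters, including antibody-secreting plasma cells, keep it. RNA of a variable segment in a tissue therefore comes mainly from cells of the B lineage, and plasma cells carry far more of it than resting B cells. Spinal tissue itself does not rearrange these genes.

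The segments are close relatives, which matters for reads of 50 bases. The stretches below are the 120 transcript bases that end with the conserved tyrosine-tyrosine-cysteine or tyrosine-phenylalanine-cysteine codons, which are set in capitals, where the third complementarity determining region begins. They are from GENCODE M21 transcripts on GRCm38, and all lie on the minus strand of chromosome 12. The first 4 are shown because they held the highest level in 1 of the 4 HDAC4 groups, the next pair because they stayed above 100 FPKM in all 4 HDAC4 groups together with Ighv5-17 and Ighv1-12, and the last pair because they cannot be told apart over this stretch.
Ighv5-17: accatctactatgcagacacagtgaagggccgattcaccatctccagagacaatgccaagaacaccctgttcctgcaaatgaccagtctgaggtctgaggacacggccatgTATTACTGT
Ighv1-12: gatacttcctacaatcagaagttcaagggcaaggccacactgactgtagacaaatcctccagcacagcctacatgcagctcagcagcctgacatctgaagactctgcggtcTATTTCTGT
Ighv7-4: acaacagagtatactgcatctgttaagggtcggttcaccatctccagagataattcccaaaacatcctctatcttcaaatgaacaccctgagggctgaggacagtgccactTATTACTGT
Ighv1-63: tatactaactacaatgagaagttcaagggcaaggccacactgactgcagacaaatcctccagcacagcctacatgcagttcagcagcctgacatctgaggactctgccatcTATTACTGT
Ighv3-6: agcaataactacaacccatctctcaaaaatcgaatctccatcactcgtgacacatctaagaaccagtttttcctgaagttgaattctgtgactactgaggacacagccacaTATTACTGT
Ighv6-3: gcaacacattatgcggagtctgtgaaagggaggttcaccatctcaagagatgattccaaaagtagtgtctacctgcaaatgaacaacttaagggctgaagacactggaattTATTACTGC
Ighv1-50: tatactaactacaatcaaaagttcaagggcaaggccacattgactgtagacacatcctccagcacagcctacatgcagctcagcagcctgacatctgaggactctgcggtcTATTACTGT
Ighv1-59: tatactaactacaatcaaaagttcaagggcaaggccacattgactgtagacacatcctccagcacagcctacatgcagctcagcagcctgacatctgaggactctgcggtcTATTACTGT
Among these 8 stretches, compared base by base without gaps, identity ran from 48.3% between Ighv3-6 and Ighv1-12 to 100% between Ighv1-50 and Ighv1-59. Ighv1-12 and Ighv1-63, both of family 1, differed at 10 of the 120 bases. Ighv5-17 is annotated at chr12:113859149-113859670, Ighv7-4 at chr12:114222788-114223328, Ighv1-12 at chr12:114615850-114616318 and Ighv1-63 at chr12:115495625-115496058. Over whole transcripts, the median segment had 19.7% of its 50-base windows in at least 1 other Ighv gene. No window was shared for 14 segments, and more than 50% were shared for 5. The TATTACTGT, the most frequent spelling of the capitals, was searched in the sense strand of the transcripts and stood in 52 of the 87 segments (59.8%) and in 89 of all 183 annotated Ighv genes (48.6%).

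Ighv RNA was near 0 in the LacZ groups and abundant in all 4 HDAC4 groups. In the LacZ saline group 1 of the 87 segments reached 1 FPKM, and in the LacZ CFA group 0 did. In the HDAC4 wt groups 59 segments reached 1 FPKM after saline and 59 after CFA. In the HDAC4 3SA groups the numbers were 48 after saline and 57 after CFA. The 87 segments summed to 8.56 and 2.36 FPKM in the LacZ saline and CFA groups, to 5698 and 7447 FPKM in the HDAC4 wt groups, and to 4576 and 6021 FPKM in the HDAC4 3SA groups. Within each HDAC4 vector the sum was thus higher after CFA, by 1.31 times for HDAC4 wt and 1.32 times for HDAC4 3SA. Over all 120 rows, with those on the opposite strand, the ratios were 2.40 and 1.91. In bulk tissue, more cells of a type and more RNA per cell cannot be told apart.

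The segment above 1 FPKM in the LacZ saline group was Ighv1-63 at 6.74 FPKM, and it was listed at 0 in the LacZ CFA group. Its locus in the tables is 90 bases long and lies inside the variable exon, so the value rests on few possible read positions. The other 86 segments stayed at or below 0.30 FPKM in both LacZ groups, and 49 of the 87 were listed at 0 in both. The highest values below Ighv1-63 were 0.30 FPKM for Ighv10-1, 0.25 FPKM for Ighv1-58 and 0.19 FPKM for Ighv5-4 after saline. After CFA the LacZ group had its highest values at Ighv5-17 (0.22 FPKM), Ighv10-3 (0.22 FPKM), Ighv3-6 (0.17 FPKM), Ighv1-78 (0.15 FPKM) and Ighv7-3 (0.12 FPKM). With sums this small, shares of segments and families are given for the HDAC4 groups only.

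**Figure D1:**
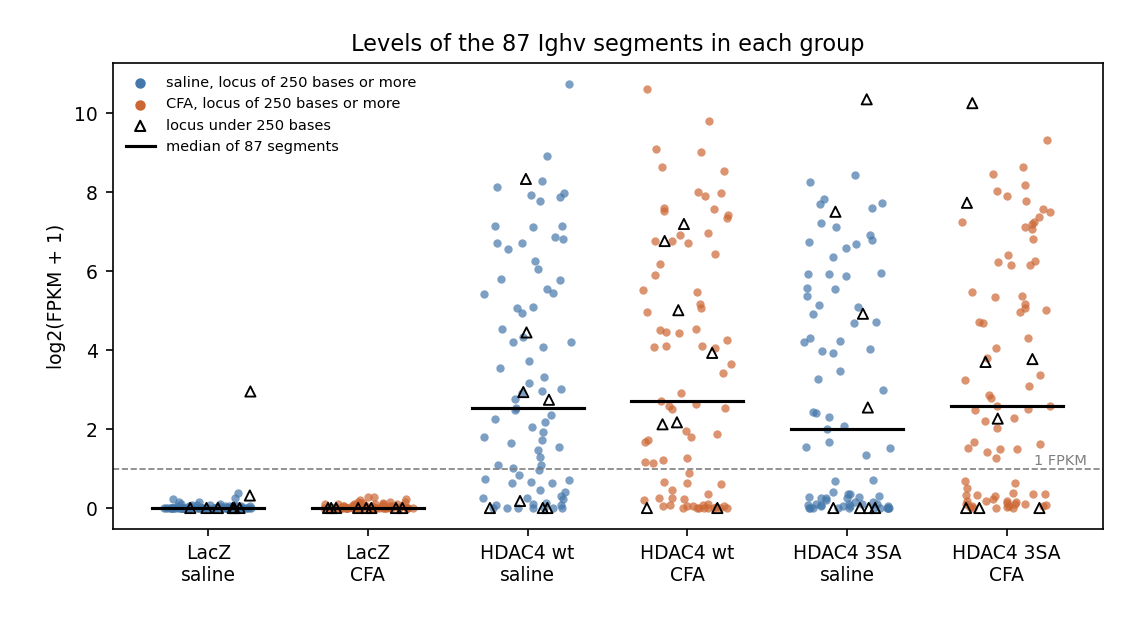
Levels of the 87 Ighv segments (vertical axis, log2 of FPKM + 1) in the 6 groups. Points are segments, triangles mark the 8 segments with loci under 250 bases, black lines are medians over segments and the dashed line is 1 FPKM. The LacZ groups lie near 0 with the exception of Ighv1-63 at 6.74 FPKM after saline, and each HDAC4 group ranges from 0 to between 1219 and 1701 FPKM.

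In every HDAC4 group, the 10 most abundant segments held most of the signal. The 5 most abundant segments held 54.3% of the summed Ighv FPKM in the HDAC4 wt saline group, 52.7% in the HDAC4 wt CFA group, 52.2% in the HDAC4 3SA saline group and 48.1% in the HDAC4 3SA CFA group. The top 10 held between 66.6% and 73.4%, and 20 to 22 segments made up 90%. The inverse Simpson number, the count of equally abundant segments that would give the same concentration, was 8.61 and 12.1 in the HDAC4 wt saline and CFA groups and 9.30 and 13.3 in the HDAC4 3SA saline and CFA groups. It depended on which rows were counted, since without loci under 250 bases the HDAC4 3SA saline group had 18.1, and with both strands summed the 4 groups had 4.65, 5.78, 15.3 and 11.1 in the same order. Over the 45 segments with at most 20% of their 50-base windows in another Ighv gene it was lower in every HDAC4 group, at 3.28, 6.19, 4.17 and 8.77. The median segment stood at 4.77, 5.59, 3.00 and 5.00 FPKM in the same order.

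With all loci counted, a different segment led each of the 4 groups. Ighv5-17 led the HDAC4 wt saline group at 1701 FPKM, 29.9% of the sum. Ighv1-12 led the HDAC4 wt CFA group at 1567 FPKM, 21.0% of the sum. Ighv7-4 led the HDAC4 3SA saline group at 1305 FPKM, 28.5% of the sum. Ighv1-63 led the HDAC4 3SA CFA group at 1219 FPKM, 20.3% of the sum. The leaders of the HDAC4 3SA groups both come from short loci. The Ighv7-4 locus is 105 bases long and lies outside the variable exon, towards the start of the gene, and that of Ighv1-63 is the 90-base locus described above. The 8 loci under 250 bases held 6.23% and 4.10% of the sum in the HDAC4 wt saline and CFA groups but 33.2% and 24.2% in the HDAC4 3SA saline and CFA groups. Without them Ighv1-59 led the HDAC4 3SA saline group with 11.2% of the sum, and Ighv5-17 led the HDAC4 3SA CFA group (14.1%) as well as the HDAC4 wt saline group.

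4 segments stayed above 100 FPKM in all HDAC4 groups, namely Ighv5-17, Ighv1-12, Ighv3-6 and Ighv6-3. Together they held 47.3% and 45.0% of the sum in the HDAC4 wt saline and CFA groups, and 13.5% and 25.2% in the HDAC4 3SA saline and CFA groups. Ighv3-6 varied least of all segments present in the 4 groups, with 233, 898, 304 and 290 FPKM in the order HDAC4 wt saline, HDAC4 wt CFA, HDAC4 3SA saline and HDAC4 3SA CFA. Its highest level was 3.85 times its lowest. Ighv6-3 had 482, 518, 109 and 351 FPKM in that order. Ighv1-12 had 281, 1567, 101 and 236 FPKM, and Ighv5-17 had 1701, 367, 106 and 642 FPKM. Both had their lowest level in the HDAC4 3SA saline group, where neither was among the 5 most abundant.

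How widely a segment was present varied. Of the 87 segments, 31 were at or above 1 FPKM in all 4 HDAC4 groups, 17 in 3, 11 in 2, 26 in a single group and 2 in none, and 0 were in all 6 groups of the study. Of the 85 present in any HDAC4 group, 36.5% were thus present in all 4 and 30.6% in a single group, beside 85.3% and 6.66% of the 19374 matched loci present in any of them. The 31 shared segments held 78.9% and 91.6% of the sum in the HDAC4 wt saline and CFA groups and 60.4% and 52.2% in the HDAC4 3SA saline and CFA groups. Even these differed widely in level, since the highest of their 4 values was a median of 16.1 times the lowest, and 275.9 times in the case of Ighv3-8. The segments of a single group, 10 in the HDAC4 wt saline, 9 in the HDAC4 wt CFA, 2 in the HDAC4 3SA saline and 5 in the HDAC4 3SA CFA group, held between 0.312% and 9.04% of their group's sum.

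Levels after saline and after CFA were then compared within a vector. At a difference of at least 2-fold on the log2(FPKM + 1) scale, 37 of the 87 segments were higher and 26 lower after CFA in mice expressing HDAC4 wt, whereas 0.854% of the 34175 loci matched between the tables were higher and 0.553% lower. In mice expressing HDAC4 3SA, 31 segments were higher and 23 lower, against 1.17% and 0.538% of all matched loci. In LacZ mice 0 segments were higher and 1, Ighv1-63, was lower, against 0.345% and 0.313% of all matched loci. Most segments therefore differed by 2-fold or more in the HDAC4 tables, 72.4% of them for HDAC4 wt and 62.1% for HDAC4 3SA, and the differences went both ways. The median log2 difference over the 87 segments was 0.29 for HDAC4 wt and 0.09 for HDAC4 3SA, beside 0.01 over all matched loci in each table. The median size of the difference, leaving out its sign, was 2.14 and 1.75 log2 units, beside 0.11 over all matched loci in both tables.

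**Figure D2:**
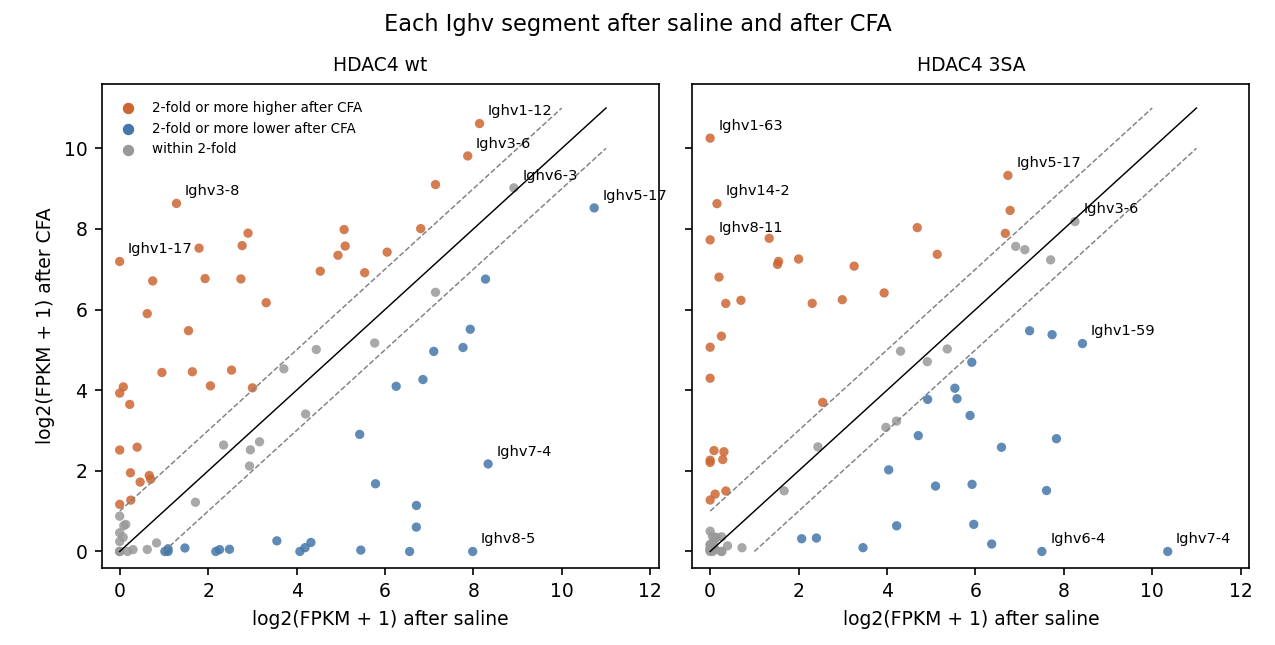
Each of the 87 Ighv segments after saline (horizontal axis) and after CFA (vertical axis), as log2 of FPKM + 1, for HDAC4 wt (left) and HDAC4 3SA (right). The solid line marks equal levels and the dashed lines 2-fold differences. In the HDAC4 wt panel 37 segments lie at or above the upper line and 26 at or below the lower, and in the HDAC4 3SA panel 31 and 23, with several segments along each axis.

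Some of the differences ran between a high level and a listed 0. For HDAC4 wt, Ighv8-5 and Ighv1-36 were at 252 and 93.2 FPKM after saline, and both were listed at 0 after CFA. In the opposite direction, the pseudogene Ighv1-17 (a 120-base locus) was listed at 0 after saline and at 145 FPKM after CFA, and Ighv6-4 (a 63-base locus) was listed at 0 after saline and at 14.2 FPKM after CFA. Ighv8-5 and Ighv1-36 have loci of 450 and 438 bases.

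For HDAC4 3SA, Ighv7-4 was at 1305 FPKM after saline and Ighv6-4 at 180 FPKM, and both were listed at 0 after CFA. Ighv1-63 and Ighv8-11 were listed at 0 after saline and stood at 1219 and 211 FPKM after CFA. All 4 of these have loci of 63 to 105 bases. Among longer loci, Ighv14-2 (435 bases) stood at 0.11 FPKM in the saline group and 395 FPKM in the CFA group, and Ighv5-4 (535 bases) was listed at 0 in the former and stood at 18.7 FPKM in the latter. Ighv8-8 went from 24.7 to 261 FPKM, a log2 difference of 3.35 with 1 FPKM added. Ighv1-64 was 5.04 log2 units lower after CFA (227 and 5.95 FPKM).

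The same segment could differ in opposite directions under the 2 vectors. Ighv5-17 was 2.21 log2 units lower after CFA for HDAC4 wt and 2.59 log2 units higher for HDAC4 3SA. Ighv1-59 was 1.37 log2 units higher for HDAC4 wt (45.6 and 119.7 FPKM after saline and CFA) and 3.26 lower for HDAC4 3SA (342 and 34.7 FPKM). Ighv8-8 was 4.11 log2 units lower for HDAC4 wt. Over the 87 segments, 10 were 2-fold or more higher after CFA with both vectors and 6 lower with both, while 11 were higher for HDAC4 wt and lower for HDAC4 3SA and 8 the reverse. These were 11.5%, 6.90%, 12.6% and 9.20% of the segments, beside 0.184%, 0.0819%, 0.117% and 0.111% of all matched loci. Of the 37 segments higher for HDAC4 wt, 27.0% were higher and 29.7% lower for HDAC4 3SA, beside 35.6% and 26.4% of all 87 segments. Ighv1-12 was higher with both, by 2.47 and 1.21 log2 units, although for HDAC4 3SA the sign turned when the row on the opposite strand was added. Ighv7-3 and Ighv7-4 were lower with both. Ighv3-8 stood at 1.44 and 396 FPKM after saline and CFA for HDAC4 wt and at 17.6 and 8.40 FPKM for HDAC4 3SA. Ighv1-53, at 140 and 548 FPKM for HDAC4 wt, stood at 14.7 and 7.45 FPKM for HDAC4 3SA.

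Turnover was also read from presence. Of the 59 segments at or above 1 FPKM after saline in HDAC4 wt mice, 44 were so after CFA and 15 (25.4%) were not, while 3.95% of all loci present after saline fell below 1 FPKM after CFA. Of the 59 present after CFA, 15 (25.4%) had been below 1 FPKM after saline, against 4.81% of all loci. For HDAC4 3SA, 40 of the 48 segments present after saline remained and 8 (16.7%) did not, against 3.47% of all loci. Of the 57 present after CFA, 17 (29.8%) had been below 1 FPKM, against 5.13% of all loci. These losses were not confined to segments near the threshold. Of the 29 segments above 20 FPKM after saline, 4 were below 1 FPKM after CFA with each vector (13.8%), whereas 0.502% and 0.299% of all loci above 20 FPKM in the HDAC4 wt and HDAC4 3SA saline groups were. For HDAC4 wt they were Ighv5-9, Ighv2-6, Ighv1-36 and Ighv8-5, with loci of 438 to 531 bases. For HDAC4 3SA they were Ighv2-2, Ighv7-3 and the short loci of Ighv7-4 (105 bases) and Ighv6-4 (63 bases).

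The make-up of the signal differed as well. The share overlap, which is the sum over segments of the smaller of 2 groups' shares, was 36.5% between HDAC4 wt saline and CFA and 27.6% between HDAC4 3SA saline and CFA. Over all matched loci it was 83.0% and 88.6%. The 10 most abundant segments after saline held 73.4% of the sum there and 54.9% after CFA for HDAC4 wt, but 71.2% and 12.4% for HDAC4 3SA. Of the 10 leading segments after saline, 5 were among the leading 10 after CFA for HDAC4 wt and 1, Ighv3-6, for HDAC4 3SA. The low values for HDAC4 3SA rested in part on the short loci. Without loci under 250 bases the 10 leading segments after saline held 65.5% there and 28.2% after CFA, 4 of them were among the leading 10 after CFA, and the share overlap was 38.1%, beside 37.9% for HDAC4 wt. Over all 87 segments, the 4 share overlaps between an HDAC4 wt and an HDAC4 3SA group ran from 34.9% to 40.1%. This range spanned the 36.5% of the HDAC4 wt pair and lay above the 27.6% of the HDAC4 3SA pair. It was not recomputed without loci under 250 bases. The HDAC4 wt saline and HDAC4 3SA saline groups, which both lacked CFA, overlapped by 34.9%. Across the 87 segments, which share reads and sequence, the Spearman correlation of saline with CFA was 0.43 for HDAC4 wt and 0.38 for HDAC4 3SA. Igkv segments, the light chain counterpart, had share overlaps of 29.8% and 48.1% between saline and CFA for HDAC4 wt and HDAC4 3SA, and their summed FPKM went from 8376 to 27438 for HDAC4 wt and from 7367 to 6808 for HDAC4 3SA. Each group is 3 mice in 1 value, so a segment of a single mouse and one of all 3 mice cannot be told apart, and neither can a difference between treatments and one between the mice chosen for each group.

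Among V families, family 1, the largest with 41 of the 87 segments (47.1%), held 39.6% and 59.0% of the sum in the HDAC4 wt saline and CFA groups and 39.9% and 50.5% in the HDAC4 3SA saline and CFA groups. Its higher share after CFA for HDAC4 3SA turned when loci under 250 bases were left out (58.6% after saline and 39.3% after CFA) and when FPKM was weighted by locus length (48.0% and 37.0%). With all loci counted on the strand of the gene it led in every HDAC4 group. With both strands summed, family 5 led the HDAC4 wt saline group with 43.8% to 37.7% for family 1, and it also led there when FPKM was weighted by locus length (37.8% to 34.8%). The most abundant member of family 1 was Ighv1-15 (309 FPKM), Ighv1-12 (1567 FPKM), Ighv1-59 (342 FPKM) and Ighv1-63 (1219 FPKM) in that order. Ighv1-12 and Ighv1-63 held 35.7% and 40.1% of the family in the groups they led, and Ighv1-15 and Ighv1-59 held 13.7% and 18.7% in theirs. Among the 45 segments with at most 20% of their 50-base windows in another Ighv gene, which leaves out many close relatives in family 1, it held 11.9% and 48.2% in HDAC4 wt saline and CFA and 10.9% and 29.1% in HDAC4 3SA saline and CFA. There it led in the HDAC4 wt CFA group, while family 5 led HDAC4 wt saline (53.8%) and HDAC4 3SA CFA (31.5%) and family 7 led HDAC4 3SA saline (47.9%). Ighv1-15 itself stood at 107, 33.3 and 2.08 FPKM in the other groups.

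The smaller families followed 1 or 2 segments. Family 5 held 31.4% of the sum in the HDAC4 wt saline group, of which Ighv5-17 made up 95.1%, and 8.02%, 4.97% and 14.2% in the HDAC4 wt CFA, HDAC4 3SA saline and HDAC4 3SA CFA groups. Family 7 held 5.94% and 29.8% in the HDAC4 wt and HDAC4 3SA saline groups and 0.0470% and 0.00986% in the respective CFA groups, and the short locus Ighv7-4 made up over 95% of it in both saline groups. Its relative Ighv7-3, with a 469-base locus, moved with it at lower levels, at 15.9 FPKM and listed at 0 for HDAC4 wt and at 61.4 and 0.59 FPKM for HDAC4 3SA. Family 3 held 18.8% in the HDAC4 wt CFA group, from Ighv3-6 and Ighv3-8, and 4.15% to 8.40% in the other groups. Family 6 held 7.62% to 10.9% in all 4 groups and varied least, led by Ighv6-3 in 3 of them and by Ighv6-6 (207 FPKM) in the HDAC4 3SA saline group. Family 8 held 5.44% and 0.0333% in the HDAC4 wt saline and CFA groups, led by Ighv8-5 after saline, and 0.636% and 7.99% in the HDAC4 3SA saline and CFA groups, led by Ighv8-8. Family 14 reached 8.22% in the HDAC4 3SA CFA group through Ighv14-2 and was between 1.01% and 2.58% elsewhere. With both strands summed the order of the groups turned, and family 14 held 0.813% and 10.5% in HDAC4 wt saline and CFA and 10.5% and 5.05% in HDAC4 3SA saline and CFA. In that setting family 3 was highest in the HDAC4 3SA pair (15.2% and 16.8%), and family 6 held 3.98% in HDAC4 wt CFA.

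**Figure D3:**
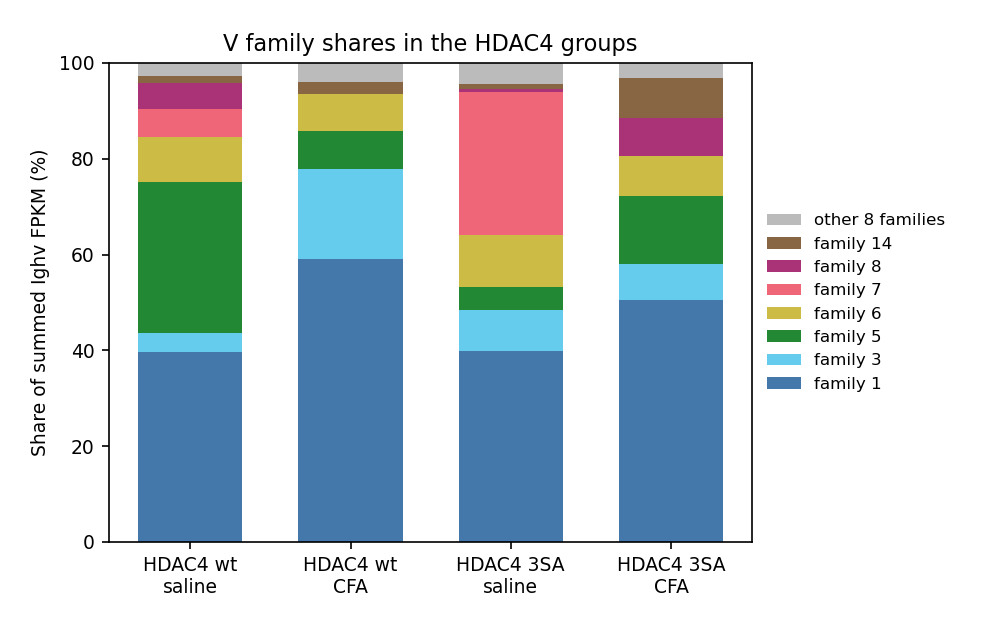
Share of the summed Ighv FPKM held by each V family (vertical axis, percent) in the 4 HDAC4 groups. Families that held at least 5% in a group have their own colour and the remaining 8 families are grey. Family 1 is the largest block in each bar, family 5 is large in HDAC4 wt saline (31.4%) and family 7 in HDAC4 3SA saline (29.8%).

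The 87 segments spread over 2.42 Mb of chromosome 12, from 113578504 to 116000510 on GRCm38, with the constant region genes before the first of them. In the first 1 Mb, which is nearest to the constant region genes, lay 45 segments, and 42 lay beyond it. After saline in HDAC4 wt mice 24 of the 45 near and 35 of the 42 far segments reached 1 FPKM, and after CFA 28 and 31 did. For HDAC4 3SA the numbers were 23 and 25 after saline and 25 and 32 after CFA. The near segments held 55.0% and 41.0% of the sum in the HDAC4 wt saline and CFA groups and 59.5% and 45.0% in the HDAC4 3SA saline and CFA groups, which was more than the far segments after saline and less after CFA. For HDAC4 3SA this order rested on loci under 250 bases, without which the near segments held 40.5% after saline and 59.4% after CFA, while for HDAC4 wt they held 52.7% and 42.6%. Most family 1 segments lie in the far stretch, so position and family cannot be told apart here. The plot of shares along the cluster shows that the leading segments of the 4 groups were scattered over the whole region.

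**Figure D4:**
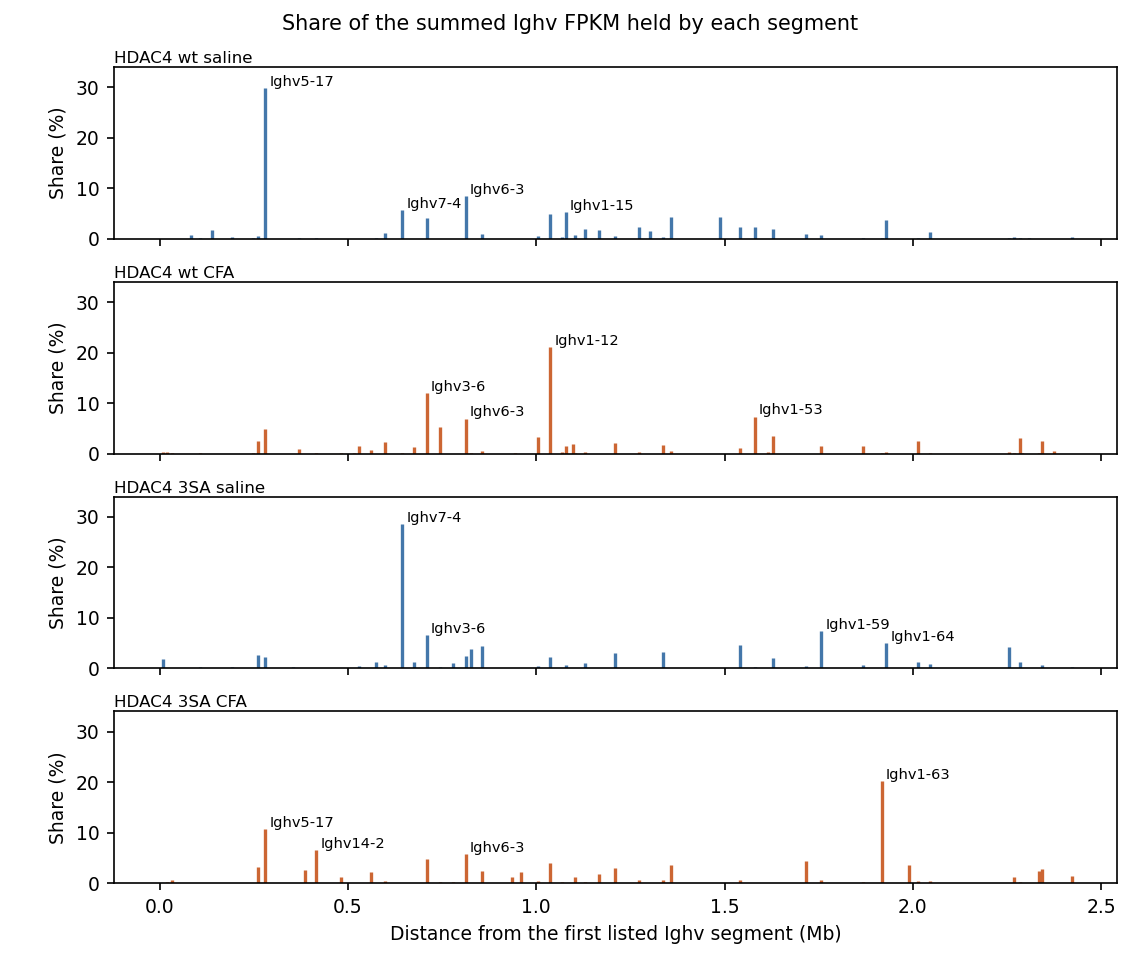
Share of the summed Ighv FPKM held by each segment (vertical axis, percent) against its distance in Mb from the first listed segment, in the 4 HDAC4 groups. Each line is a segment and the 4 largest in a group are named. The tallest line is Ighv5-17 (29.9%), Ighv1-12 (21.0%), Ighv7-4 (28.5%) and Ighv1-63 (20.3%) from top to bottom.

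Segments present in all 4 HDAC4 groups did not stand apart by low sequence sharing. Their median share of 50-base windows found in another Ighv gene was 24.3%, beside 18.2% for the 54 segments present in 1 to 3 of the groups. Of the 14 segments with no shared window, 1 was present in all 4 groups, 12 in 1 to 3 and 1 in none. TATTACTGT stood in 21 of the 31 segments present in all 4 groups (67.7%) and in 30 of the 54 present in fewer (55.6%). Levels of close relatives are uncertain, and how reads that fit several segments were divided is not given in the sources used here. For the pair with identical stretches, Ighv1-50 had 140, 85.2, 212 and 40.6 FPKM and Ighv1-59 had 45.6, 119.7, 342 and 34.7 FPKM in the order HDAC4 wt saline, HDAC4 wt CFA, HDAC4 3SA saline and HDAC4 3SA CFA. The segment with the most shared windows was Ighv1-62-2 (91.8%), at 5.69, 107 and 29.3 FPKM in the first 3 of these groups and 12.7 FPKM in the last. Leading segments differed in this respect, with 14.9% of windows shared for Ighv5-17, 6.2% for Ighv1-12, 0% for Ighv7-4 and 34.1% for Ighv1-63. These percentages are over whole transcripts and need not describe the loci of 105 and 90 bases behind the levels of Ighv7-4 and Ighv1-63. The Ighv7-4 stretch printed above lies outside its measured locus.

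The rows on the opposite strand carried large values of their own. In 32 of the 33 cases the second row had exactly the place of the first, and the strand of each row was inferred from the order of the identifiers. The 33 rows summed to 0.36 and 9.87 FPKM in the LacZ saline and CFA groups, to 8504 and 26645 FPKM in the HDAC4 wt saline and CFA groups and to 3801 and 9957 FPKM in the HDAC4 3SA saline and CFA groups, which was 45.4% to 78.2% of the FPKM of all 120 rows in the HDAC4 groups. Over all 120 rows, the numbers at or above 1 FPKM were 1, 2, 78, 84, 67 and 79 in the 6 groups, in the order LacZ, HDAC4 wt, HDAC4 3SA with saline before CFA. The 2 rows in the LacZ CFA group belonged to Ighv10-3 and Ighv14-4 at 4.18 and 4.01 FPKM.

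Rows on the opposite strand followed those on the strand of the gene in level, and in most but not all differences between saline and CFA. Across the 33 segments, the Spearman correlation of the paired rows ran from 0.78 to 0.87 in the 4 HDAC4 groups. The opposite row was the higher one for 15, 22, 15 and 18 of the 33 segments in the HDAC4 wt saline, HDAC4 wt CFA, HDAC4 3SA saline and HDAC4 3SA CFA groups. Ighv1-12 had 1074 and 10882 FPKM on the opposite strand after saline and CFA in HDAC4 wt mice, and Ighv5-17 had 4406 and 1082 FPKM, so both kept the direction of their gene-strand rows. In HDAC4 3SA mice Ighv1-12 had 730.0 and 345 FPKM on the opposite strand, the reverse of its gene-strand row (101 and 236 FPKM). At 2-fold, 19 of the 33 opposite rows were higher and 7 lower after CFA for HDAC4 wt, beside 0.854% and 0.553% of all matched loci. For HDAC4 3SA, 14 were higher and 7 lower, beside 1.17% and 0.538%. By sign alone, 20 of the 33 pairs were higher on both strands for HDAC4 wt, 8 were lower on both, 2 were of opposite sign and 3 had no difference on at least 1 strand. Past 2-fold on both strands, 17 were higher, 7 lower and 0 of opposite sign. For HDAC4 3SA the numbers by sign were 12, 8, 5 and 8, and past 2-fold on both strands 10 were higher, 3 lower and 2 of opposite sign. No share over all loci was computed for these paired counts. With both strands summed per segment, Ighv5-17 and Ighv1-12 still led the HDAC4 wt saline and CFA groups, with 43.0% and 36.5% of the sum, and Ighv7-4 the HDAC4 3SA saline group (15.6%), while Ighv1-85 led the HDAC4 3SA CFA group (18.9%).

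**Figure D5:**
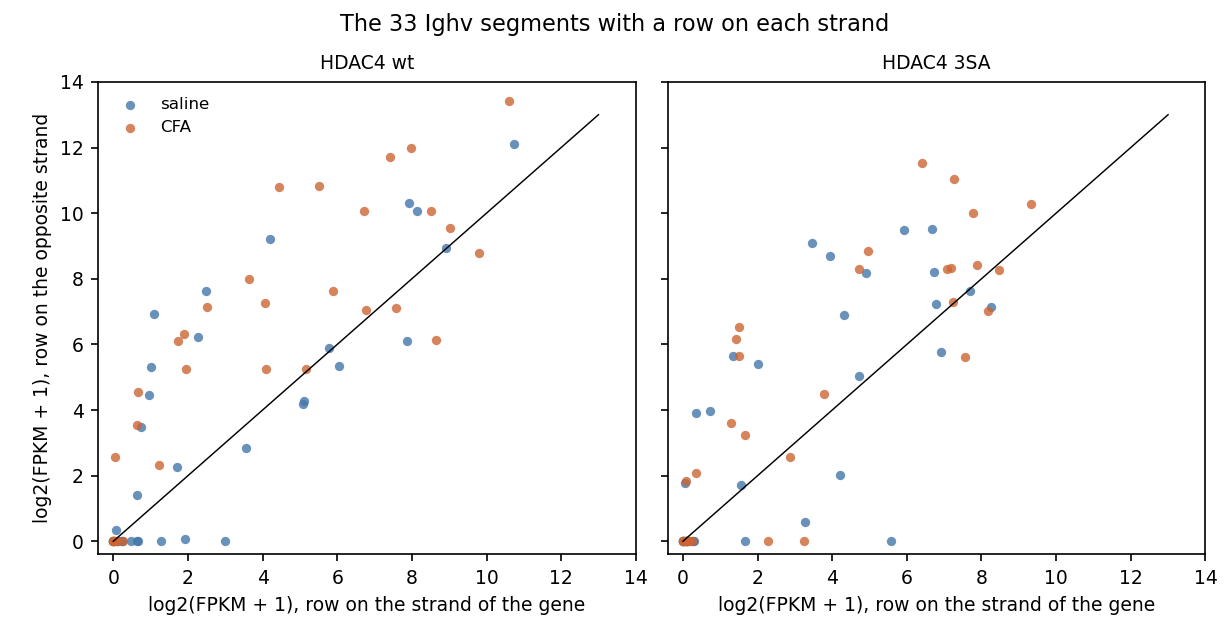
The 33 Ighv segments with a row on each strand, for HDAC4 wt (left) and HDAC4 3SA (right), after saline (blue) and CFA (orange). The horizontal axis is the row on the strand of the gene and the vertical axis the row on the opposite strand, both as log2 of FPKM + 1, and the line marks equal values. Points rise together on both axes, and 22 of 33 lie above the line in HDAC4 wt CFA.

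Most other listed genes of the antibody pathway were below 1 FPKM in LacZ mice and were higher with HDAC4. Exceptions included Ighm, and Xbp1, a transcription factor of secretory cells, was at 26.8 and 29.7 FPKM in the LacZ saline and CFA groups. Jchain, which links antibody monomers into polymers, was at 0.20 and 0.29 FPKM in the LacZ saline and CFA groups, 262 and 282 FPKM in the HDAC4 wt groups and 167 and 227 FPKM in the HDAC4 3SA groups. Mzb1, an endoplasmic reticulum factor of antibody assembly, was at 0.07 and 0.13, at 23.1 and 20.7, and at 15.5 and 19.3 FPKM in the same order. Of the 7 plasma cell genes listed (Sdc1, Xbp1, Prdm1, Irf4, Tnfrsf17, Jchain and Mzb1), 0 differed by 2-fold between saline and CFA in any table, and none of the 4 assembly genes did either. Of all matched loci, 0.658%, 1.41% and 1.71% did in the LacZ, HDAC4 wt and HDAC4 3SA tables, so counts of 0 do not set these genes apart. All 7 were at or above 1 FPKM in 3 of the HDAC4 groups and 5 in HDAC4 3SA saline, while in LacZ mice Sdc1 and Xbp1 were and the other 5 were not.

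Among the 8 heavy chain constant region genes, 5 were at or above 1 FPKM in each HDAC4 group. Igha, the constant region of IgA, was at 0.05 and 0.24 FPKM in the LacZ groups, 269 and 435 FPKM in the HDAC4 wt saline and CFA groups and 120 and 90.9 FPKM in the HDAC4 3SA groups. Ighm, the constant region of IgM, was present in LacZ mice too, at 5.22 and 5.26 FPKM, and stood at 77.0 and 64.5 FPKM for HDAC4 wt and 35.7 and 103 FPKM for HDAC4 3SA. Ighg3 went from 29.2 to 161 FPKM for HDAC4 wt and from 45.3 to 15.8 FPKM for HDAC4 3SA. It was the constant gene past 2-fold for HDAC4 wt, and Ighm (higher) and Ighg3 (lower) were those for HDAC4 3SA. Igkc, the kappa constant region, differed by under 2-fold in each, at 419 and 446 FPKM and at 283 and 362 FPKM, while Iglc1 went from 19.0 to 215 FPKM for HDAC4 3SA and Iglc2 from 118 to 22.9 FPKM for HDAC4 wt and from 14.8 to 47.0 FPKM for HDAC4 3SA.

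Markers of other blood cells were read beside these levels. Among B cell markers, Cd79a, Cd79b and Cd22 were at 3.11 to 10.4 FPKM in the HDAC4 groups, and Ms4a1 and Pax5 were below 1 FPKM in all 6 groups. T cell markers summed to 0.53 and 0.82 FPKM in LacZ mice and to 4.23 to 12.9 FPKM in the HDAC4 groups. Of the pre-B and pro-B cell list only Dntt could be read, at 0.21 to 0.50 FPKM in all groups. Neutrophil and bone marrow precursor markers moved differently. Their sum was 3.33 FPKM in LacZ saline and 22.7 FPKM in LacZ CFA, 9.25 and 4.46 FPKM in the HDAC4 wt pair and 12.9 and 7.02 FPKM in the HDAC4 3SA pair. Red blood cell markers summed to 141 to 395 FPKM in all groups. Astrocyte, oligodendrocyte and microglial markers summed to 535 and 543 FPKM in LacZ mice and to 1016 to 1356 FPKM in the HDAC4 groups. The sum of the neuronal markers given at the outset was lower in the HDAC4 groups. Snap25, Slc6a5 and Slc17a6 were lower in each HDAC4 group than in both LacZ groups, whereas the levels of Rbfox3 and Gad1 overlapped. Rbfox3 was at 73.7 FPKM in HDAC4 3SA saline and at 71.6 FPKM in LacZ saline. The part of these cells in the Ighv levels was not tested.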

How the data were processed

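RNAseq libraries were strand-specific, made from poly-A RNA of dorsal spinal cord and read as single ends of 50 bases. The authors mapped them with TopHat and Bowtie to GRCm38 (mm10) and made gene tables with Cuffdiff, 1 for each vector, that list 34579 loci. The deposited FPKM values give 1 estimate per group over 3 mice, scaled within each vector's run. The tables also hold the authors' fold changes, test statistics, p-values and q-values, and none of these was used. Counts and depth per library were not analysed here, so precision is unknown, and how strand was set in counting is not given in the sources used here.

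Loci were joined by identifier. At 386 loci the places did not overlap between tables and these were left out, and 34175 loci remained with a usable status in all tables. Of the 87 segments, 3 had the status for a test in the LacZ table, 77 in the HDAC4 wt and 69 in the HDAC4 3SA table, and the others were below the software's minimum for testing. No filter on low values was set. A row's strand was inferred from identifiers, which run along each chromosome once per strand, and this matched the annotated strand in 98.6% of 13255 loci with a unique name. The place of a locus is that of the bundle of reads, so the length of the transcript behind a value is uncertain. Fold changes are log2((CFA + 1)/(saline + 1)), and a segment counted as present at 1 FPKM or more. Shares are of the summed FPKM of the 87 segments.

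Named segments are the 5 highest in each group, the 2 highest in each vector and direction among those listed at 0 in the other group, and the leading member of each family with at least 5% in a group, and others are named as range ends. Members, lists and rules were chosen with earlier results of these data known. Promoter octamers and recombination signals were not analysed here, and the result of 1 listed marker gene is not reported here. Transcripts and annotation were from GENCODE M21. Python 3.11.15, pandas 2.3.3, numpy 2.4.6, scipy 1.17.1 and matplotlib 3.10.9 were used, and the functions were tested on simulated data. Alternatives to the level of presence, the FPKM added, the loci counted, the weighting by length and the scaling were planned, and those on strand and on shared windows were added after the data had been seen.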

Additional observations from a re-analysis of the deposited data

How the results depend on the processing

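No paired analysis was possible because the tables hold 1 value per group, and for the same reason no mouse could be left out. 13 other settings were tried, and a count or share was taken as unchanged within 1.5 times its value, the percentage kept within its binomial confidence interval and a named difference on the same side of 2-fold. That interval treats segments as independent, which they are not. It served only as a yardstick for change between settings and gives no error for a group. Of 918 recomputed values, 716 were unchanged, 201 moved and 1 reversed, the difference of Ighv1-12 for HDAC4 3SA, which was -0.52 log2 units with both strands summed.

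In the HDAC4 tables, the numbers present, the shares of the top 5 and of family 1, the percentage kept and the share overlap stayed within 1.5 times or their interval with loci of at least 250 bases, without pseudogenes and with either strand setting, and so did those results recomputed at presence levels of 0.5 or 5 FPKM or with shares of FPKM times length. Which family led did change, since in HDAC4 wt saline family 5 (43.8%) was ahead of family 1 (37.7%) with strands summed. The order of family 1 between HDAC4 3SA saline and CFA also turned, to 58.6% and 39.3% with loci of at least 250 bases and to 48.0% and 37.0% with FPKM times length. Of the counts past 2-fold, the number higher for HDAC4 wt was 56 over rows of both strands. With the 45 segments that share at most 20% of their windows, 27 and 28 segments were present after saline and CFA for HDAC4 wt and 20 and 28 for HDAC4 3SA, 20 were higher and 11 lower for HDAC4 wt and 18 and 7 for HDAC4 3SA, the top 5 held 90.7% in HDAC4 wt saline, and family 1 held 11.9% and 48.2% in the HDAC4 wt pair and 10.9% and 29.1% in HDAC4 3SA saline and CFA. Fewer segments enter these values by construction. With a test status in all tables, 1 segment was left, present in all 4 HDAC4 groups (1 each) and in LacZ saline at 0, with 0 higher and 1 lower for HDAC4 wt, 1 higher and 0 lower for HDAC4 3SA and 0 lower for LacZ, and no share could be given.

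For LacZ, the number present after saline and the number lower were 0 without loci under 250 bases and with at most 20% of windows shared. The number present after CFA and the number higher were 2 with rows of both strands or with strands summed. With 0.1 FPKM added, 4 were higher and 5 lower, and the share over all loci was not computed at that setting. The lack of values and read counts per mouse limits every comparison, and the FPKM of loci under 250 bases, which led both HDAC4 3SA groups, rest on few read positions.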
